A study of Mus musculus with 48 samples.

Results

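Gene expression 8 h after the last session in an inhalation chamber was compared with that at its end in the hippocampus (HPC) of mice that never received ethanol. Of the 48 arrays of the series, 12 were compared, 6 from control (Ctrl) mice killed at 8 h and 6 from Ctrl mice killed at 0 h, with 1 array per mouse and 45037 probe sets on each. The members were taken by their labelled treatment and time alone. All were adult male C57BL/6J mice that breathed air in a chamber for 16 h a day on 4 days, spent 7 days outside it, and went through 4 such cycles. Before each cycle they were injected with saline and with pyrazole at 1 mmol/kg, a blocker of alcohol dehydrogenase, so that pyrazole was shared by all 12 mice. Ctrl 8 h mice were killed 8 h after the last session, and Ctrl 0 h mice as the session ended. Mice were housed singly on a 12-hour light and dark cycle. The clock time of either harvest is not given in the sources used here, and time of day and time since the chamber cannot be told apart in this comparison. Also used below were 2 later Ctrl groups, killed 72 h and 7 d after the last session, and chronic intermittent ethanol (CIE) mice killed 8 h and 0 h after it, which breathed ethanol vapor on the same schedule and were injected with ethanol and pyrazole.

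The mammalian clock is a feedback loop in which CLOCK and BMAL1 bind E-box sequences and drive repressors, among them the PER, CRY and CIART proteins, and output factors such as DBP. The hippocampus runs this loop and follows daily swings of body temperature, feeding, glucocorticoid and arousal. Body temperature also reaches RNA directly, as Cirbp is induced by mild cooling, and heat shock factor drives chaperone genes on warming. Immediate early genes such as Fos and Arc follow neuronal firing over a shorter span.

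A pair of promoters of genes described below is shown with matches to the letters of known control elements. The windows run from 250 bases before to 50 bases after the transcription start annotated by RefSeq (GRCm38.p6). The E-box searched was CACGTG, which reads the same on both strands, and it was found in 7.15% of the 32851 windows of this length. The heat shock element searched was GAANNTTCNNGAA on either strand, found in 0.603% of them. Ciart, a repressor of the clock loop, lies on the minus strand at chr3:95882179-95882478 and carried 3 E-boxes, shown in capitals. Chordc1, a partner of the chaperone HSP90, lies on the plus strand at chr9:18292017-18292316 and carried 3 overlapping matches to the heat shock element across its start, shown as 1 run of capitals.
Ciart: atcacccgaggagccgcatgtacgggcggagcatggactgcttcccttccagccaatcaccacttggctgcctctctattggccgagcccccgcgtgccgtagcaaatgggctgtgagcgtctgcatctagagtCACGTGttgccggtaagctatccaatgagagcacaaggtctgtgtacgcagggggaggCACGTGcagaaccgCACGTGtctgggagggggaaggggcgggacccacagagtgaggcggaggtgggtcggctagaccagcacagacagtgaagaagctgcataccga
Chordc1: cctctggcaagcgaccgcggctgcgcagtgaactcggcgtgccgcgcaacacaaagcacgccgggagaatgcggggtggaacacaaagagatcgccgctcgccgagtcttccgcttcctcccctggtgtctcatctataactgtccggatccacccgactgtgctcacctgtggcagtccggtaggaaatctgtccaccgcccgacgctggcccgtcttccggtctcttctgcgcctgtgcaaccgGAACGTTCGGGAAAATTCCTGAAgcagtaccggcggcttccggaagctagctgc
Of the 23 clock genes measured, 20 had a window and 5 of these held an E-box, in 6 of 29 windows (20.7%). The E-box was also in 12 of the 65 windows (18.5%) of the genes called higher at 8 h below, and in 2 of 25 (8%) of those called lower. Of the 27 heat shock genes, 23 had a window and 5 held the heat shock element, in 7 of 32 windows (21.9%). That element was in 1 of the 65 windows (1.54%) of the genes called higher, that of Chordc1, and in 0 of 25 of those called lower. The D-box TTATGNAA, in 3.38% of all windows, was in 2 of 29 clock windows (6.9%), 1 of the 65 and 0 of the 25. A match describes the letters in the window only.

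The array medians of the 12 mice lay between 6.606 and 6.627 on the log2 scale, and pairs of arrays correlated at 0.9743 to 0.9971 over probe sets. The lowest median correlation with the other 11 arrays was 0.9877, in Ctrl 0 h mouse 2, close to the next at 0.9886. Defining markers of hippocampus were high, with Prox1 of dentate granule cells at 8.02 to 9.99 in Ctrl 8 h mice and 8.46 to 10.17 in Ctrl 0 h mice. Values equal within 1e-08, at least 5 of them shared, joined 47 of the 48 arrays into 6 sets, which were read from the values and are in no label. Of these, 5 sets held 1 Ctrl 8 h and 1 Ctrl 0 h mouse each. Mouse 2 could not be matched this way, as its values are given to 6 decimals against 9 on the other arrays, and it was dropped from the fit with the set as a block, which thus changes 2 things at once. Marker levels differed between mice. The mean of 12 thalamus and habenula markers was 7.44 to 7.86 in Ctrl 8 h mice and 7.16 to 8.53 in Ctrl 0 h mice, where mice 2, 12 and 20 were the highest at 8.53, 8.02 and 7.96. The thalamic factor Tcf7l2 is a member of this list, so that its values are part of that mean and no separate support. It was at 7.03 to 7.47 in Ctrl 8 h mice. In Ctrl 0 h mice 20, 12 and 2 it was at 8.59, 8.62 and 9.60, and in the other 3 at 6.60, 6.73 and 7.19. The mean of 10 dentate granule cell markers was 9.15 to 10.34 in Ctrl 8 h mice and 9.19 to 10.51 in Ctrl 0 h mice, with 9 of the 10 lower on average at 8 h. The 9 CA pyramidal cell markers were all higher on average at 8 h, with a median difference of 0.32. None of these markers passed the test, and blood markers averaged 5.87 to 5.94 in Ctrl 8 h mice and 5.77 to 5.94 in Ctrl 0 h mice. In bulk tissue, fewer cells of a type and less RNA per cell cannot be told apart.

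Between 8 h and 0 h, 505 of 45037 probe sets were called, or 1.12% of those tested, by limma with Benjamini-Hochberg adjustment at a false discovery rate (FDR) of 0.01. Of these, 115 were higher (0.255%) and 390 lower (0.866%) in Ctrl 8 h mice. At the level of genes, with 1 probe set per gene, 86 of 18193 were called (0.473%), 61 higher (0.335%) and 25 lower (0.137%). The changes were small, with fold changes of 1.11 to 1.56 for the genes that were higher and 1.13 to 2.30 for those that were lower. The median change over all genes was 0.05 on the log2 scale, 69% of all genes were higher on average at 8 h, and 17.3% had an unadjusted p below 0.05, against which the lists below are to be read. Groups did not overlap in 25 of the 61 higher and 8 of the 25 lower genes, and did not overlap in 0.693% and 0.121% of all genes in these directions. With the array set as a block, and so without mouse 2, 19 probe sets and 3 genes were called, with the variance taken from the 24 Ctrl arrays 32 and 5, and from the 12 compared arrays 0 and 0, with 6073 probe sets and 1962 genes at an unadjusted p below 0.05. The counts also rested on a few mice. Without Ctrl 8 h mouse 4, 40 probe sets and 9 genes were called, and without Ctrl 0 h mouse 2, 71 probe sets and 13 genes. Without both of these mice 7 probe sets and 1 gene (Spef1) were called, and without Ctrl 0 h mice 2, 12 and 20, 7 probe sets and 1 gene (Hspb1, not called with all mice). Of the 86 genes, 7 were called whichever of the 12 mice was left out: Spef1, Tubd1, Ttc30a1, Phc1, Ap5z1, Cirbp and Otx2os1. Phc1 and Ap5z1 were picked out after their values were seen. Of the 42 called genes given below with values, 6 stayed past the threshold without Ctrl 8 h mouse 4 and 8 without Ctrl 0 h mouse 2. Further probe sets were present for 19 of the 42, and a further probe set was called the same way in 1 of them (Tfap2b) and the opposite way in 0.

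The genes that kept their calls without any single mouse and with the array set in the model were 3 genes of microtubules and cilia, which rose in Ctrl 8 h mice. Spef1, a microtubule-bundling protein of motile cilia, read 8.20, 8.04, 8.21, 8.03, 7.88 and 8.21 in Ctrl 8 h mice, against 7.53, 7.67, 7.66, 7.85, 7.54 and 7.55 in Ctrl 0 h mice. The groups did not overlap, with the lowest 8 h mouse just above the highest 0 h mouse, and the log2 change was 0.46 ± 0.07 (model SE, adjusted p = 0.000184). The other probe set of Spef1 had a change of -0.02. Tubd1, the delta-tubulin of centrioles, ranged from 6.87 to 7.29 with a median of 7.18 in Ctrl 8 h mice and from 6.58 to 6.74 with a median of 6.65 in Ctrl 0 h mice. It rose by 0.46 ± 0.07 (adjusted p = 0.000245), again with no overlap. Ttc30a1, a subunit of the intraflagellar transport machinery, had 6.93 to 7.24 (median 7.01) in Ctrl 8 h mice and 6.52 to 6.75 (median 6.64) in Ctrl 0 h mice, a change of 0.41 ± 0.06 (adjusted p = 0.000245). With the array set as a block their changes were 0.44, 0.45 and 0.40 (adjusted p = 0.00593, 0.00771 and 0.00801). In CIE mice the changes over the same 8 h were 0.05 for Spef1, 0.27 for Tubd1 and 0.28 for Ttc30a1. The limma test of the difference (Ctrl minus CIE) gave 0.41 ± 0.09 for Spef1 (adjusted p = 0.0349). It gave 0.19 ± 0.10 for Tubd1 and 0.14 ± 0.09 for Ttc30a1 (adjusted p = 0.45 and 0.591), and none of the 3 was called. Markers of ependymal cells, which bear motile cilia, were higher on average in 8 of 8 genes (69% of all genes), by a median of 0.26, and 0 of the 8 were called by limma (1 at an unadjusted p below 0.05). Their part in the change of Spef1 was not tested. Cetn3, a centrin of the centriole, moved the other way, with 10.26 to 10.34 in Ctrl 8 h mice and 10.43 to 10.58 in Ctrl 0 h mice. It fell by 0.21 ± 0.04 on the log2 scale (adjusted p = 0.00352) and, as with Oscp1 below, was picked out after its values were seen.

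**Figure D1:**
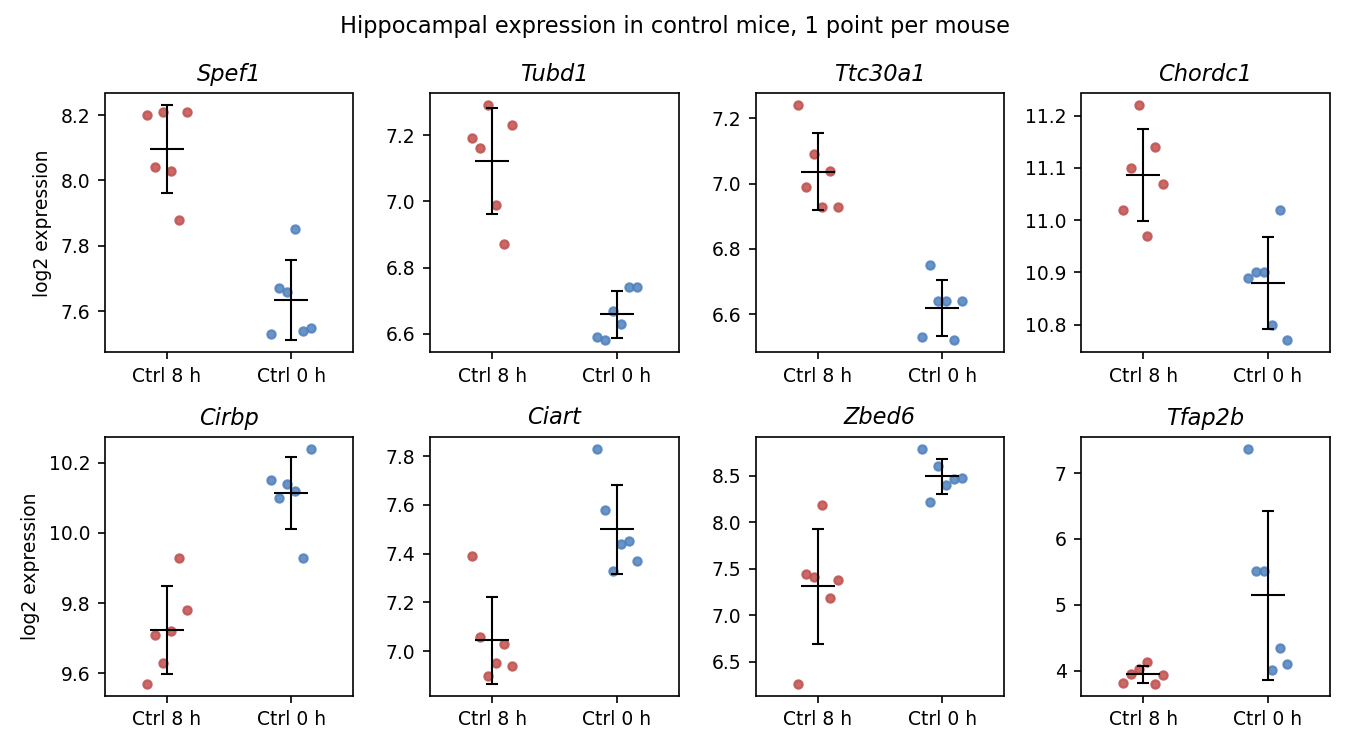
Log2 expression of 8 genes in the hippocampus of Ctrl 8 h (left, red) and Ctrl 0 h (right, blue) mice, 1 point per mouse, with the mean (line) and SD (bar) of 6 mice. The groups do not overlap in Spef1, Tubd1, Ttc30a1 and Zbed6, and Tfap2b is high in 3 Ctrl 0 h mice only (5.51, 5.52 and 7.37).

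Several of the genes with the largest increases are known from glia or immune cells. Trim34a, a gene of the interferon-inducible TRIM family, had the highest change of the called genes, at 6.98, 7.38 and 8.45 (lowest, median and highest) in Ctrl 8 h mice and 6.68, 6.95 and 7.19 in Ctrl 0 h mice, or 0.65 ± 0.15 (adjusted p = 0.0079), while its other probe set had a change of 0.06. It overlapped between groups and was highest in Ctrl 8 h mice 66 and 4, at 8.45 and 7.97. Nmi, an interferon-induced partner of STAT proteins, rose by 0.39 ± 0.09 (adjusted p = 0.0091). Lcp1, a leukocyte actin bundler, rose by 0.44 ± 0.10 (adjusted p = 0.00804), with 7.50 in mouse 4 and 6.72 to 6.98 in the other Ctrl 8 h mice. Crybb1 and Slc2a5, a crystallin and a fructose transporter found in microglia, rose by 0.43 ± 0.09 and 0.41 ± 0.10 (adjusted p = 0.005 and 0.00913). Among the 15 microglia markers, 14 were higher on average (69% of all genes), by a median of 0.19, and 0 were called by limma, with 5 at an unadjusted p below 0.05 (17.3% of all genes). Gpr17, a receptor of committed oligodendrocyte precursors, had 8.66 to 8.99 in Ctrl 8 h mice and 8.02 to 8.68 in Ctrl 0 h mice, an increase of 0.49 ± 0.10 (adjusted p = 0.00329). It was the only one of 8 precursor markers called. Over 0 h, 8 h, 72 h and 7 d Gpr17 averaged 8.28, 8.78, 9.08 and 9.12 in Ctrl mice, so that the 0 h mice were the low group. In CIE mice its change over the same 8 h was -0.05. Pla1a, a phospholipase for phosphatidylserine, rose by 0.53 ± 0.10 (adjusted p = 0.0018), with no overlap between groups. Its Ctrl means at 0 h, 8 h, 72 h and 7 d were 6.03, 6.56, 6.59 and 6.29.

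Others of the highest genes had mixed roles. Ndp, the secreted Frizzled ligand norrin, had 7.55 to 7.93 in Ctrl 8 h mice and 6.98 to 7.52 in Ctrl 0 h mice, with no overlap and a change of 0.45 ± 0.09 (adjusted p = 0.00464). A receptor of the same family, Fzd9, had 7.64 to 7.81 in Ctrl 8 h mice and 7.11 to 7.53 in Ctrl 0 h mice, again with no overlap (0.35 ± 0.07, adjusted p = 0.00367), and was chosen after its values were seen. Cdca8, a part of the chromosomal passenger complex of dividing cells, rose by 0.47 ± 0.10 (adjusted p = 0.00412). Its mean was lowest in the Ctrl 0 h mice, with 5.89, 6.36, 6.27 and 6.37 at 0 h, 8 h, 72 h and 7 d. Cbr3, a carbonyl reductase, and Nat1, an arylamine N-acetyltransferase, rose by 0.41 ± 0.09 and 0.40 ± 0.09 (adjusted p = 0.00723 and 0.00943). Smaller increases included Rngtt, the mRNA capping enzyme, with 8.40 to 8.57 in Ctrl 8 h mice and 8.05 to 8.36 in Ctrl 0 h mice (0.28 ± 0.05, adjusted p = 0.00162), and Mrrf, the mitochondrial ribosome recycling factor (0.24 ± 0.05, adjusted p = 0.00329). Ccdc6, a coiled-coil protein, had 10.10 to 10.27 in Ctrl 8 h mice and 9.88 to 9.98 in Ctrl 0 h mice, with no overlap (0.24 ± 0.04, adjusted p = 0.00212). These 3 genes were chosen after their values were seen.

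Most of the decrease in the count of probe sets came from dim, secondary probe sets rather than from whole genes. Of the 390 lower probe sets, 25 were the probe set used for their gene (6.41%, against 40.4% of all probe sets), 225 were further probe sets of named genes and 133 had no gene symbol (34.1%, against 20.3%). Their median level was 5.97, below the 6.62 of all probe sets, and their median change was -0.78. The 225 further probe sets belonged to 214 genes, and had a median change of -0.86, whereas the probe sets used for the same 214 genes had a median change of 0.00, with 1 called lower and 0 called higher. The 115 higher probe sets were brighter, with a median level of 7.94 and a median change of 0.31, and 61 of them (53%) were the probe set used for their gene.

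The noncoding nuclear RNA Malat1 showed the same division within 1 gene. The brightest Malat1 probe set read 11.54 to 11.75 in Ctrl 8 h mice and 11.52 to 11.68 in Ctrl 0 h mice, with a change of 0.02 ± 0.06 (adjusted p = 0.917), and a further one had a change of -0.07 ± 0.07. The remaining 5 of the 7 Malat1 probe sets had changes of -1.22 to -2.12, 2 of which were called (adjusted p = 0.00301 and 0.000833), and neither with the array set as a block (0.0402 and 0.0143). The 2 called stood at 6.62 and 7.93 over all arrays, and the others of the 5 at 10.90, 11.27 and 11.36. The mean of all 7 was 8.71, 10.12, 9.86, 10.46, 9.79 and 10.04 in Ctrl 8 h mice, against 11.55, 10.95, 11.08, 10.54, 11.05 and 10.73 in Ctrl 0 h mice. The groups did not overlap, and the exact two-sided permutation p was 0.00216, the smallest that 6 against 6 mice can give. The difference of -1.16 was -1.05 without Ctrl 0 h mouse 2 and -0.94 without Ctrl 8 h mouse 4. The mice at the ends were also those at the ends of the mean over the 390 lower probe sets, which was 5.49 in Ctrl 8 h mouse 4 and 7.26 in Ctrl 0 h mouse 2. Those probe sets were called on the same mice and include the 2 called Malat1 probe sets, so that this is no separate support. Over the 4 harvests (0 h, 8 h, 72 h, 7 d) the mean over the 390 probe sets was 6.76 ± 0.28, 5.93 ± 0.27, 6.02 ± 0.13 and 6.57 ± 0.30 (SD, n = 6 each), and Malat1 averaged 10.98 ± 0.35, 9.83 ± 0.60, 9.91 ± 0.28 and 10.70 ± 0.29. The 8 h and 72 h mice were thus both low, and the 0 h and 7 d mice both high. RNA quality was not given for single mice in the sources used here, and its part in these values was not tested.

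**Figure D2:**
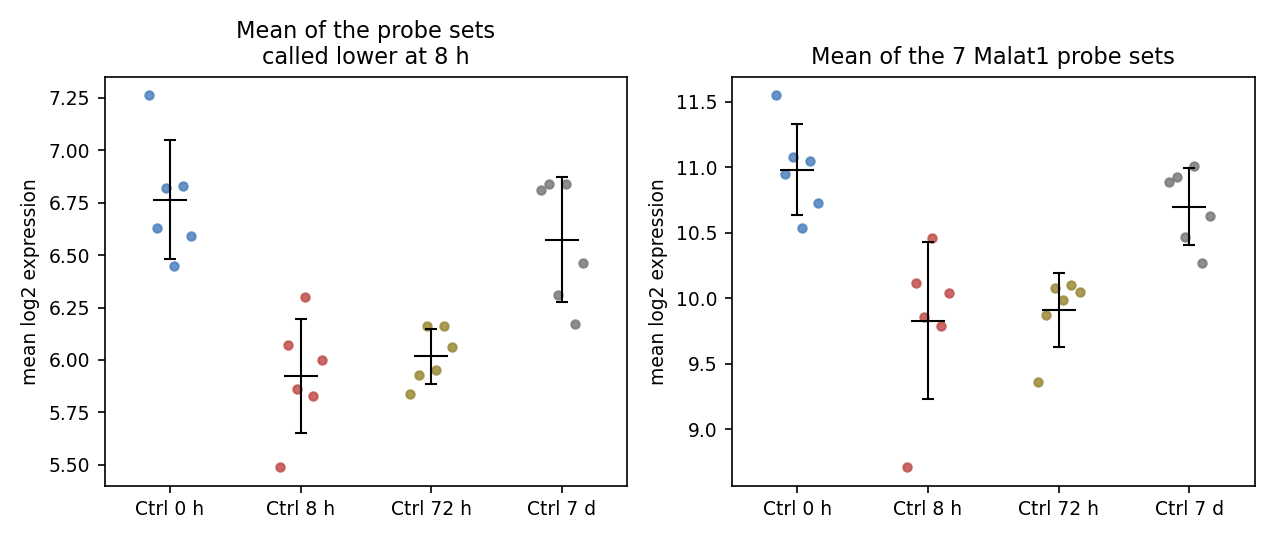
Mean log2 expression of the 390 probe sets called lower at 8 h (left) and of the 7 Malat1 probe sets (right) in Ctrl mice at 0 h, 8 h, 72 h and 7 d, 1 point per mouse, with mean and SD of 6 mice. The left panel's probe sets were chosen on the 0 h and 8 h mice, and in both panels the 72 h mice lie near the 8 h mice (6.02 and 9.91 on average).

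Among the 25 lower genes, the 3 largest falls were in the probe sets used for Tfap2b, Zbed6 and Zbtb7a, all of them DNA-binding factors. Zbed6, a transcriptional repressor derived from a transposon, had 6.26, 7.39 and 8.19 (lowest, median and highest) in Ctrl 8 h mice and 8.22, 8.47 and 8.79 in Ctrl 0 h mice. It did not overlap and fell by 1.18 ± 0.25 on the log2 scale (adjusted p = 0.00406). Zbtb7a, another repressor, had 6.25 to 7.67 in Ctrl 8 h mice and 7.56 to 9.04 in Ctrl 0 h mice by this probe set, which fell by 1.18 ± 0.27 (adjusted p = 0.00756), while its 2 other probe sets had changes of -0.03 and 0.12. The other probe set of Zbed6 had a change of -0.73 and that of Tfap2b one of -1.17. In Zbed6 and Zbtb7a Ctrl 8 h mouse 4 was the lowest. Zbed6 averaged 8.49, 7.31, 7.40 and 8.38 at 0 h, 8 h, 72 h and 7 d, and Zbtb7a 8.15, 6.97, 7.03 and 7.85. Both were thus low at 72 h as well as at 8 h, like the mean of the lower probe sets above. Tfap2b was high at 0 h only, with 5.14, 3.94, 4.09 and 3.96. Tfap2b, an AP-2 factor, had 3.80 to 4.13 in Ctrl 8 h mice and 4.01, 4.93 and 7.37 (lowest, median and highest) in Ctrl 0 h mice. Its change of -1.20 ± 0.28 (adjusted p = 0.0086) rested on Ctrl 0 h mice 2, 12 and 20, at 7.37, 5.52 and 5.51, the mice with the highest thalamus markers. The transcription factors Shox2 and Otx2, listed as thalamus and choroid plexus markers, had changes of -1.37 ± 0.34 and -1.13 ± 0.28 (adjusted p = 0.0144 and 0.0146, not called). They were picked out after their values were seen, as were Tcf7l2 and Prox1. Of the 12 thalamus and habenula markers, 5 were higher and 7 lower on average at 8 h, with a median change of -0.03. Of the 12 choroid plexus markers, 7 were higher and 5 lower, with a median change of 0.08. Without Ctrl 0 h mice 2, 12 and 20 the change was -0.21 for Tfap2b, -0.38 for Otx2os1 and 0.01 for Shox2, and none of them was called. Otx2os1, a noncoding RNA neighbouring Otx2, fell by 0.58 ± 0.10 (adjusted p = 0.000883) at a level of 3.82 to 4.17 in Ctrl 8 h mice and 4.20 to 5.17 in Ctrl 0 h mice. Its mean over all arrays was 4.16 and that of Tfap2b 4.21, below the median of 6.62 over all probe sets. The part of the dissection in these genes was not tested.

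The other large decreases included Dpf1, a subunit of the neuronal BAF chromatin remodeler, and H3f3a, which codes for histone H3.3, at -0.53 ± 0.12 and -0.51 ± 0.12 (adjusted p = 0.00649 and 0.00804). Cdh8, a synaptic cadherin, had 8.36 to 9.16 in Ctrl 8 h mice and 8.91 to 9.73 in Ctrl 0 h mice, and fell by 0.68 ± 0.15 (adjusted p = 0.00761). Naa16, an auxiliary subunit of N-terminal acetyltransferase, and Shmt1, the cytosolic serine hydroxymethyltransferase, each fell by 0.44 on the log2 scale (SE 0.10 and 0.09, adjusted p = 0.00723 and 0.0046). Fbxl18, an F-box protein, Morc2b, a MORC family protein, and 3 noncoding or uncharacterised loci, 2610024D14Rik, Gm20199 and Gm16794, fell by 0.65 to 1.04. The other probe sets of 2610024D14Rik and Gm16794 had changes of 0.07 and 0.06, and those of Dpf1 and Naa16 of -0.13 and -0.18. For Cdh8 the others had -0.21 and -0.01, and for Shmt1 from -0.13 to 0.02, and none of these was called. In each of these 10 genes no more than 3 of the 36 pairs of a Ctrl 8 h and a Ctrl 0 h mouse ran the other way. Of the genes that fell by less, 3 are given here that were chosen after their values were seen. Exosc1, a subunit of the RNA exosome, had 9.11 to 9.36 in Ctrl 8 h mice and 9.37 to 9.68 in Ctrl 0 h mice (-0.25 ± 0.05, adjusted p = 0.0046). Pms2, of mismatch repair, and Apex1, of base excision repair, fell by 0.24 ± 0.05 and 0.18 ± 0.04 (adjusted p = 0.00447 and 0.00823).

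Cirbp, the cold-inducible RNA-binding protein, fell in Ctrl 8 h mice. It read 9.57, 9.71, 9.63, 9.72, 9.93 and 9.78 in Ctrl 8 h mice, against 10.15, 10.10, 10.14, 10.12, 9.93 and 10.24 in Ctrl 0 h mice. A single pair of mice met at 9.93, and the change was -0.39 ± 0.06 (95% confidence interval -0.52 to -0.26, adjusted p = 0.000771). This gene was named after its values were seen. With the array set as a block the change was -0.38, with an adjusted p of 0.0128. Relative to the mean of Ctrl 72 h and Ctrl 7 d mice, a comparison that uses the same Ctrl 8 h mice and is no independent support, Cirbp was lower at 8 h by 0.57 on the log2 scale (adjusted p = 1e-08). Its levels at 0 h, 8 h, 72 h and 7 d were 10.11 ± 0.10, 9.72 ± 0.13, 10.22 ± 0.10 and 10.36 ± 0.06 (SD, n = 6 each).

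Of the 27 heat shock genes measured, 1 was called higher and 0 lower, 21 were higher on average (69% of all genes), and 12 had an unadjusted p below 0.05 (17.3% of all genes). Their median change was 0.10, against 0.05 over all genes. The mean of the list was 10.34 to 10.46 in Ctrl 8 h mice and 10.16 to 10.30 in Ctrl 0 h mice, and it was the 1 list of the 49 examined, markers included, whose groups did not overlap. Chordc1, whose promoter is shown above, read 10.97, 11.09 and 11.22 (lowest, median and highest) in Ctrl 8 h mice and 10.77, 10.89 and 11.02 in Ctrl 0 h mice. It rose by 0.21 ± 0.05 (adjusted p = 0.0091), with Ctrl 0 h mouse 56 the only mouse inside the 8 h range. Chordc1 was not called with the array set as a block (0.21, adjusted p = 0.0536), nor in 10 of the 12 fits that left out 1 mouse. Against the mean of Ctrl 72 h and 7 d mice it was higher in the same Ctrl 8 h mice by 0.35 (adjusted p = 2.22e-07). Hspb1, a small heat shock protein, had 9.43 to 9.75 in Ctrl 8 h mice and 8.45 to 9.65 in Ctrl 0 h mice (0.54 ± 0.15, adjusted p = 0.0242, not called). Hspa1a, the inducible HSP70, had 9.67 to 10.09 in Ctrl 8 h mice and 9.08 to 9.76 in Ctrl 0 h mice (0.37 ± 0.12, adjusted p = 0.0599, not called). Chordc1 and Hspb1 were chosen after their values were seen. Chaperones of the endoplasmic reticulum gave 0 calls in 27 by limma, with 10 at an unadjusted p below 0.05 (17.3% of all genes) and a median change of 0.07.

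The clock list held 23 measured genes, of which 1 was called. Ciart read 7.39, 7.06, 6.90, 6.95, 7.03 and 6.94 in Ctrl 8 h mice, against 7.83, 7.58, 7.33, 7.44, 7.45 and 7.37 in Ctrl 0 h mice. It fell by 0.46 ± 0.09 on the log2 scale (adjusted p = 0.0026), and only Ctrl 8 h mouse 4 reached the range of the 0 h mice. Dbp, the output factor that binds D-boxes, had 11.15 to 11.37 in Ctrl 8 h mice and 11.25 to 11.61 in Ctrl 0 h mice, a change of -0.16 ± 0.05 (adjusted p = 0.0753, not called). Rorb, an orphan receptor that is also a neocortex marker, had a change of -0.63 ± 0.19 (adjusted p = 0.0493, not called), with 7.97 in Ctrl 8 h mouse 4. The repressor genes Per1 and Per2 had changes of 0.10 ± 0.08 and 0.24 ± 0.09, the activators Arntl (BMAL1) and Npas2 had 0.15 ± 0.07 and 0.55 ± 0.23, and Nr1d1, the REV-ERB repressor of Arntl, had 0.03 ± 0.07 (adjusted p = 0.503, 0.12, 0.266, 0.155 and 0.894, none called). The other 15, Clock, Per3, Cry1, Cry2, Nr1d2, Rora, Tef, Hlf, Nfil3, Bhlhe40, Bhlhe41, Csnk1d, Csnk1e, Fbxl21 and Usp2, had changes of -0.07 to 0.19 (adjusted p from 0.217 to 0.998). The list's median change was 0.02. All these values are of the 1 probe set used per gene. The 2 other probe sets of Tef had changes of -0.93 and -0.15, and 1 of them was called lower. Other probe sets had changes of -0.91 to 0.16 for Rora, -0.49 to 0.00 for Clock and -0.36 to 0.06 for Per2. They had -0.08 to 0.13 for Csnk1d, -0.41 for Arntl and 0.22 for Npas2, and none of these was called.

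The 8 h mice were also set against the harvests that came whole days later. In the order 0 h, 8 h, 72 h and 7 d, Dbp averaged 11.41 ± 0.13, 11.25 ± 0.08, 11.65 ± 0.07 and 11.70 ± 0.10 (SD, n = 6 each), and Ciart 7.50 ± 0.18, 7.05 ± 0.18, 7.64 ± 0.13 and 7.77 ± 0.16. Against the mean of Ctrl 72 h and 7 d mice, Dbp was lower at 8 h by 0.42 and Ciart by 0.66 on the log2 scale (adjusted p = 7.28e-08 and 1.8e-07). In that comparison, which shares the 8 h mice, 444 probe sets were called (0.986%), 352 higher (0.782%) and 92 lower (0.204%) at 8 h. The later harvests also differed from 0 h, with 105 probe sets called (0.233%). Dbp was among these, higher than at 0 h by 0.26 in the mean of 72 h and 7 d (adjusted p = 0.0012). Cstad and Oscp1, chosen after their values were seen, fell between 0 h and 8 h by 0.39 ± 0.08 and 0.25 ± 0.05 (adjusted p = 0.00274 and 0.00489) and were lower than at the later harvests by 0.43 and 0.32. Oscp1 had 8.45 to 8.72 in Ctrl 8 h mice and 8.74 to 8.95 in Ctrl 0 h mice, with no overlap.

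**Figure D3:**
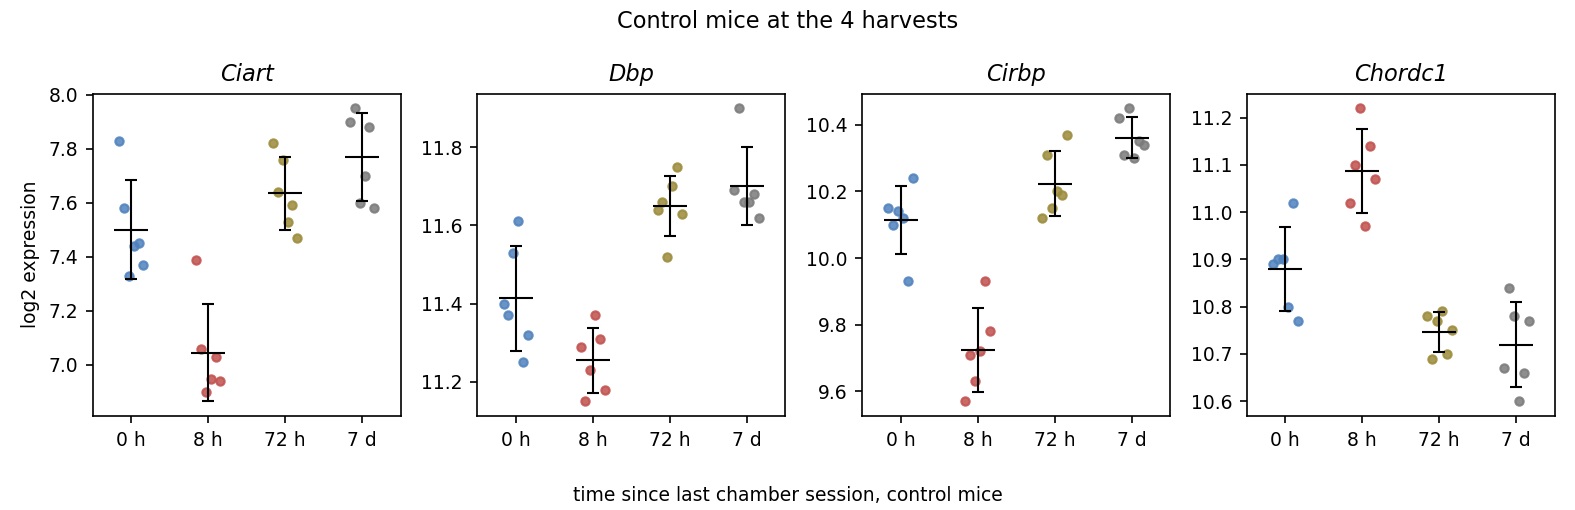
Log2 expression of Ciart, Dbp, Cirbp and Chordc1 in Ctrl mice at 0 h, 8 h, 72 h and 7 d after the last chamber session, 1 point per mouse, with mean and SD of 6 mice. Ciart, Dbp and Cirbp have their lowest mean at 8 h (7.05, 11.25 and 9.72) and Chordc1 its highest (11.09).

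Activity and stress hormone genes gave no calls. Of 40 immediate early genes 0 were called by limma, with 7 at an unadjusted p below 0.05, near the 17.3% of all genes, and a median change of 0.09. Fos had 7.67, 8.13 and 9.33 (lowest, median and highest) in Ctrl 8 h mice and 8.43, 8.71 and 9.27 in Ctrl 0 h mice, with Ctrl 8 h mice 32 and 66 at 9.33 and 9.26 and the other 4 at or below 8.21. Its change was -0.36 ± 0.22 (adjusted p = 0.384). Arc, an activity-regulated synaptic protein, and Egr1, a zinc finger factor, had changes of 0.14 ± 0.19 and 0.29 ± 0.22 (adjusted p = 0.755 and 0.493). Of 32 glucocorticoid-induced genes 0 were called, with 4 at an unadjusted p below 0.05 (17.3% of all genes) and a median change of 0.05, equal to that of all genes. Fkbp5, a chaperone of the glucocorticoid receptor, had 10.00 to 10.34 in Ctrl 8 h mice and 9.88 to 10.28 in Ctrl 0 h mice, and Sgk1, a serum and glucocorticoid kinase, had 10.84 to 11.23 in Ctrl 8 h mice and 11.14 to 11.54 in Ctrl 0 h mice, with changes of 0.00 ± 0.13 and -0.24 ± 0.09 (adjusted p = 0.999 and 0.12).

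Interferon-stimulated genes were higher on average in 40 of 40 members (69% of all genes), by a median of 0.40, and 0 were called at an FDR of 0.01 by limma, with 23 at an unadjusted p below 0.05 (17.3% of all genes). The list averaged 8.10, 7.80, 7.43, 7.02, 8.55 and 7.19 in Ctrl 8 h mice, against 7.13, 7.21, 7.74, 7.01, 7.26 and 7.26 in Ctrl 0 h mice. Mice 66, 4 and 8 were high at 8 h, the other 3 lay within the range of the 0 h mice, and the groups overlapped. Rtp4, a chaperone of receptor transport, ranged from 8.00 to 10.27 in Ctrl 8 h mice and from 7.92 to 8.78 in Ctrl 0 h mice (0.71 ± 0.21, adjusted p = 0.0376). Ifi47, an interferon-induced GTPase, and Parp14, an ADP-ribosyltransferase, had changes of 0.62 ± 0.16 and 0.62 ± 0.15 (adjusted p = 0.0203 and 0.0126). Of the 9 genes of MHC class I presentation measured, all were higher on average (69% of all genes) and 1 was called, the peptide trimming enzyme Erap1, with 6.20 to 6.76 in Ctrl 8 h mice and 5.86 to 6.25 in Ctrl 0 h mice (0.36 ± 0.08, adjusted p = 0.00685). These 4 genes were chosen after their values were seen.

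**Figure D4:**
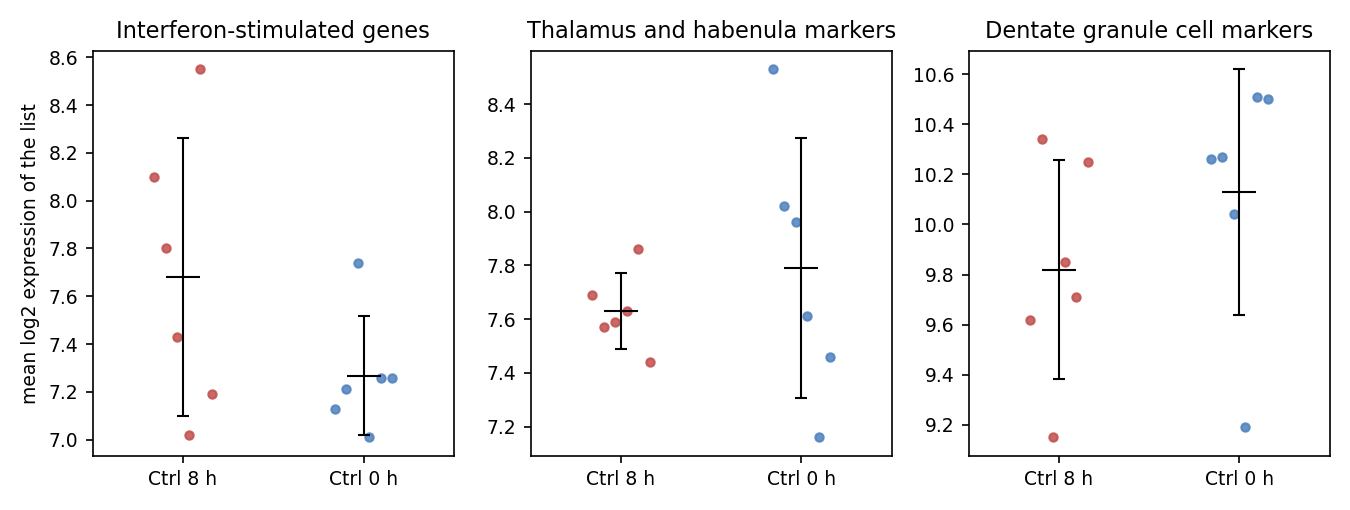
Mean log2 expression of 40 interferon-stimulated genes, 12 thalamus and habenula markers and 10 dentate granule cell markers in Ctrl 8 h (left, red) and Ctrl 0 h (right, blue) mice, 1 point per mouse, with mean and SD of 6 mice. All 3 lists overlap between groups, with single mice such as Ctrl 8 h mouse 66 (8.55) and Ctrl 0 h mouse 2 (8.53) far from the rest.

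Across the 33 functional lists, 4 had 1 called member each (Ciart, Chordc1, Cirbp and Erap1) and 29 had none. Those 29 covered 678 genes, of which 119 had an unadjusted p below 0.05, near the 17.3% of all genes. Medians of the lists for oxidative phosphorylation and ribosomal proteins were 0.02 in each, of synaptic vesicle proteins 0.01, of glutamate receptors 0.06, and of the proteasome -0.04.

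The change over 8 h was also set beside that in CIE mice, which left ethanol vapor at 0 h. Of the 61 higher genes, 15 were called in the same direction in CIE mice, and of the 25 lower genes 6, while 1.71% of all genes were called higher and 1.25% lower in CIE mice. None was called in the opposite direction. A test of the difference itself called 15 probe sets (0.0333%) and 6 genes (0.033%). The largest difference of the 6 was in Fos, with a change of -0.36 ± 0.22 in Ctrl mice and 1.76 ± 0.22 in CIE mice (difference -2.11 ± 0.31, adjusted p = 0.000495). Its level was 8.43 ± 0.70 and 8.78 ± 0.34 in Ctrl 8 h and Ctrl 0 h mice, and 9.21 ± 0.38 and 7.45 ± 0.35 in CIE 8 h and CIE 0 h mice (SD, n = 6 each), so that the Ctrl mean lay above the CIE mean at 0 h and below it at 8 h, where the mice of the 2 groups overlapped. Dbp had a change of -0.16 ± 0.05 in Ctrl mice and of -0.73 ± 0.05 in CIE mice (difference 0.57 ± 0.08, adjusted p = 8.96e-05). Its CIE 0 h mice were at 11.78 ± 0.08 and its Ctrl 0 h mice at 11.41 ± 0.13. The remaining genes were Pik3cd, a catalytic subunit of phosphoinositide 3-kinase (-0.34 in Ctrl and 0.32 in CIE mice), Manf, a secreted protein of endoplasmic reticulum stress (-0.06 and 0.41), Rbm33, an RNA-binding protein (0.15 and -0.30), and the expressed sequence R74862 (0.11 and -0.40), with adjusted p of the difference from 0.00421 to 0.00649. With the array set as a block the difference stayed called for Fos and Dbp (adjusted p = 0.00565 and 0.00182) and was not called for these 4 (0.0198 to 0.037). It was also not called for R74862 and Pik3cd without Ctrl 8 h mouse 8 (0.0104 and 0.0129), nor for Rbm33 and Manf without Ctrl 8 h mouse 4 (0.0125 and 0.0187). Ciart fell in both, by 0.46 ± 0.09 in Ctrl and 1.03 in CIE mice (difference 0.57 ± 0.12, adjusted p = 0.0284, not called). Cirbp fell by 0.39 in Ctrl and 0.48 in CIE mice.

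**Figure D5:**
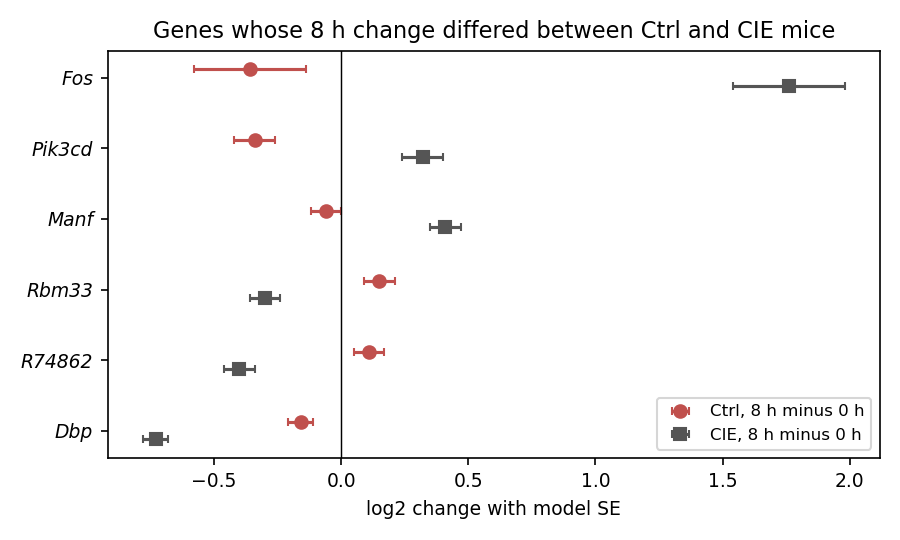
Log2 change from 0 h to 8 h in Ctrl mice (circles, above) and CIE mice (squares, below) for the 6 genes whose change differed between them, with bars of 1 model SE. Fos lies at -0.36 in Ctrl and 1.76 in CIE mice, and Dbp at -0.16 and -0.73.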

How the data were processed

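Hippocampal RNA of each mouse was hybridized to 1 Affymetrix Mouse Genome 430 2.0 array. The authors deposited log2 values after, per the methods, robust multiarray averaging within each hybridization batch, quantile normalization of all arrays and ComBat with that batch, which can shrink or carry over differences between groups. No tool version of theirs is given here. Of 45037 probe sets, 34945 had 1 gene symbol, 932 several and 9160 none, by the platform annotation, and 34741 matched RefSeq by gene ID. For 18193 genes 1 probe set was used, that with the highest mean over all arrays, and an _x_at probe set only where a gene had no other. Groups were compared with limma 3.58.1 in R 4.3.3, fitted over all 48 arrays with 1 mean per group, two-sided, with Benjamini-Hochberg adjustment over all 45037 probe sets and calls at 0.01. Of the called genes, the 15 with the highest and the 15 with the lowest change were named, with all clock genes measured, 5 genes of the difference from CIE mice, and Fos, Arc, Egr1, Hspa1a, Fkbp5, Sgk1 and Malat1. Of these, 1 gene is not reported here. Members, lists and tests were chosen with earlier results of these data known. Alternatives were the 24 Ctrl or the 12 compared arrays alone, the array set as a block, a variance trend, array weights, a filter on dim probe sets, quantile normalization, the mean of all probe sets of a gene, an FDR of 0.05 and leaving out each mouse. Leaving out mice 2 and 4, or mice 2, 12 and 20, was added after seeing the data. The fit was tested on simulated data. The number of arrays limits the precision, and mice were separate animals.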

Additional observations from a re-analysis of the deposited data

Results flagged for a closer look

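Single mice lay far from the other 5 of their group, by Dixon's test for 6 values, in 9 of 136 groups of values, where chance gives about 1 in 20. Ctrl 8 h mouse 4 was the highest for Pla1a (6.81, nearest 6.55), Lcp1 (7.50, nearest 6.98) and Ciart (7.39, nearest 7.06) and the lowest for Rorb (7.97, nearest 8.70). Ctrl 8 h mouse 66 was the lowest for Nat1 (6.75, nearest 7.08). Among Ctrl 0 h mice, mouse 2 was the lowest for Nmi (7.59, nearest 7.88), mouse 56 the highest for Manf (10.89, nearest 10.65), mouse 20 the highest for Rtp4 (8.78, nearest 8.24) and mouse 38 the lowest for Prox1 (8.46, nearest 9.76).

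The change from 0 h to 8 h differed between Ctrl and CIE mice, by the limma test of the difference (Ctrl minus CIE, log2), in Dbp (0.57), Fos (-2.11), R74862 (0.51), Pik3cd (-0.66), Rbm33 (0.46) and Manf (-0.46). Of these, R74862, Pik3cd, Rbm33 and Manf were not called with the array set as a block (adjusted p by limma 0.0198 to 0.037), nor without Ctrl 8 h mouse 8 (R74862 and Pik3cd) or mouse 4 (Rbm33 and Manf). Manf was chosen after its values were seen.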

How the results depend on the processing

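For the change from 0 h to 8 h, 505 probe sets and 86 genes were called. The counts were 32 and 5 with the 24 Ctrl arrays alone, 0 and 0 with the 12 arrays alone (51 probe sets at an FDR of 0.05), 19 and 3 with the array set as a block, 21 and 3 with array weights, 7 and 1 without mice 2 and 4, 7 and 1 without Ctrl 0 h mice 2, 12 and 20, and 2166 and 569 at an FDR of 0.05. Without single mice they were 40 to 1094 and 9 to 227, lowest without Ctrl 8 h mouse 4 and highest without Ctrl 0 h mouse 38. Among brighter probe sets 209 were called, 41.6% of them higher against 22.8%. With the mean of all probe sets of a gene 119 genes were called, 30.3% of them higher against 70.9%. The difference from CIE mice gave 15 probe sets, and 5 with the block, 27 among brighter probe sets, 6 without mice 2 and 4, 7 without mice 2, 12 and 20, 169 at an FDR of 0.05 and 9 to 23 without single mice. Ctrl 8 h against the later harvests gave 444, and 135 with Ctrl arrays alone, 285 with the block, 264 without mice 2 and 4, 1178 at an FDR of 0.05 and 244 to 494 without single mice. The later harvests against 0 h gave 105, and 29 with Ctrl arrays alone, 41 with the block, 27 with array weights, 27 without mice 2, 12 and 20, 698 at an FDR of 0.05 and 64 to 298 without single mice. The cause of these shifts was not tested.

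Signs turned for Arntl (-0.13), Per2 (-0.02), Rbm33 (-0.02), Fkbp5 (-0.04) and Malat1 (-1.16) with the mean of all probe sets, for Per1 (-0.02), Tcf7l2 (0.42) and Shox2 (0.01) without mice 2, 12 and 20, and for Arc (-0.03) without mice 2 and 4. Without single mice the change was -0.02 to 0.07 for Nr1d1, -0.05 to 0.03 for Fkbp5 and -0.01 to 0.03 for Malat1. Of 42 genes of the text called with all mice, 42 were called after quantile normalization, 41 with a variance trend and 3 with the block. No paired analysis was possible because no mouse number occurs in more than 1 group, and the array set, with 1 mouse of each group in 5 sets, served as the block. That fit also drops mouse 2, whose loss alone left 71 probe sets and 13 genes.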
